A study of Homo sapiens with 16 samples.

Results

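The effect of all-trans retinoic acid (RA, 10 µM) was measured in neuroblastoma cells that also received palbociclib (PB, 1 µM), an inhibitor of CDK4 and CDK6. It was taken as the RNA sequencing samples given both agents (PB+RA) against those given palbociclib alone (PB), which were selected by the treatment and replicate number in their titles and make up 8 of the 16 samples of the series. Each group held 4 replicates. All 16 samples were SK-N-BE(2)C, an established neuroblastoma line with amplified MYCN and an adrenergic, that is sympathetic neuroblast, character. The other 8 samples, vehicle (DMSO) and RA alone, were used only to ask whether the retinoid effect differed without palbociclib. Both agents were dissolved in DMSO, so that every group carried the vehicle. The methods of the study give 5 days of treatment and define replicates as separately plated passages of a single line, so that the results hold for 1 line, 1 dose of each agent and 1 time.

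Retinoic acid binds RAR receptors, which sit as heterodimers with RXR on paired hexamers in DNA and switch from repression to activation when the ligand arrives. The genes that bind, reduce and break down retinoids are among the best known targets, so the ligand induces its own clearance. CDK4 and CDK6 with cyclin D phosphorylate the RB family, which releases E2F factors to transcribe S phase genes, and palbociclib blocks that step. Retinoids slow division and drive neurite outgrowth in many neuroblastoma lines.

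The 8 libraries held 19515779 to 25152529 counts, at which 3 counts, the most that a count of 0 allows in a library by counting error alone, equal 0.119 to 0.154 CPM, that is counts scaled to a library total of 1000000. Of 27037 genes, 15415 were tested. A gene was called when its Benjamini-Hochberg adjusted p, over all tested genes, was below 0.05 in edgeR's quasi-likelihood test with the replicate number as a block and its absolute log2 fold change was above 0.5. Below, CPM levels are means ± SD (n = 4) where not given per sample, log2 fold changes are given ± SE, and a gene that rose or fell by a value did so by that value on the log2 scale. All 8 markers of adrenergic neuroblasts (among them HAND2, GATA3, ISL1, TH, DBH and MYCN) had a mean of at least 10 CPM in both groups, with summed levels of 8000 to 9240 CPM in PB and 6430 to 8540 in PB+RA. The amplified MYCN alone averaged 5480 CPM in PB and 4460 in PB+RA. Of the 8, only ISL1 was called lower and none was called higher. Of the 5 Schwann cell markers in the table, SOX10 had 1 count in PB and 0 in PB+RA, and the list summed to 30.1 to 54.6 CPM and 31.2 to 39.4 CPM. The first principal component of the 8 samples held 52.5% of the variance and separated PB from PB+RA. The second held 24.9% and parted replicates 1 and 2 from 3 and 4 in both groups, so the comparison was repeated within each of these sets.

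Adding RA to PB raised 1649 genes and lowered 1279, which is 10.7% and 8.30% of the genes tested. The counts for each list below are to be read beside these shares. The sizes were asymmetric, since 732 rises but 424 falls exceeded a log2 fold change of 1, while among the calls that averaged 10 CPM or more there were 610 rises and 705 falls. CPM values did not overlap between the groups for 73.7% of the rises and 74.8% of the falls, against 31.5% of all tested genes. All 4 replicate pairs moved in the called direction for 1594 rises and 1240 falls. In replicates 1 and 2 alone 1223 of the rises and 1016 of the falls were called again, in replicates 3 and 4 alone 1361 and 1026, and in both sets 1024 and 839. Over the tested genes the median log2 fold change was -0.02. Because these are bulk samples, fewer cells of a kind and less RNA per cell cannot be told apart.

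The retinoid machinery held the 2 largest rises among calls that averaged 10 CPM or more and did not overlap. Of the 12 tested genes for retinoid uptake, binding and breakdown, 8 were higher, none was lower and 4 were not called, with a median log2 fold change of 0.97. CYP26A1 and CYP26B1, the hydroxylases that degrade retinoic acid, rose from low levels. CYP26A1 (GRCh37 chr10:94833232-94837642, plus strand) was at 0.815, 0.532, 1.05 and 0.317 CPM in PB replicates 1 to 4 and 51.4, 71.5, 214 and 157 CPM in PB+RA replicates 1 to 4. All PB+RA samples lay far above all PB samples, and within PB+RA replicates 3 and 4 were the highest. The log2 fold change was 7.37 ± 0.35 (adjusted p = 3.10e-08), or 165-fold. CYP26B1 (chr2:72356367-72374991, minus strand) was at 3.13, 1.6, 3.09 and 1.76 CPM in PB replicates 1 to 4 and 226, 192, 251 and 304 CPM in PB+RA replicates 1 to 4. The groups were again far apart and the spread within PB+RA was narrower than for CYP26A1, with a log2 fold change of 6.62 ± 0.16 (adjusted p = 3.35e-12).

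The retinoid-binding proteins moved less in fold but more in amount. CRABP2, which carries retinoic acid to the nuclear receptors, was at 299, 338, 407 and 368 CPM in PB replicates 1 to 4 and 2040, 2029, 1833 and 2101 CPM in PB+RA replicates 1 to 4 (chr1:156669398-156675608, minus strand). No values overlapped, and the log2 fold change was 2.49 ± 0.10 (adjusted p = 5.15e-10). For CRABP1, its close relative, replicates 3 and 4 were higher than 1 and 2 in both groups, so the groups overlapped (66.0 ± 13.9 CPM in PB and 124 ± 50.5 in PB+RA) although each pair rose, with a log2 fold change of 0.81 ± 0.10 (adjusted p = 6.30e-06). Among the enzymes that interconvert retinol and retinal, DHRS3 rose from 1.48 ± 0.125 CPM to 7.94 ± 1.54 CPM by a log2 of 2.38, RDH10 from 20.2 ± 3.10 to 61.8 ± 8.80 CPM by 1.57 and RDH12 from 3.65 ± 1.22 to 5.88 ± 1.43 CPM by 0.68 (edgeR adjusted p = 7.88e-11, 3.55e-07 and 4.30e-04). RDH12 overlaps ZFYVE26 on the opposite strand, and the strand used in counting is not given in the sources used here. RDH12 was not called when the replicate block was left out.

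**Figure D1:**
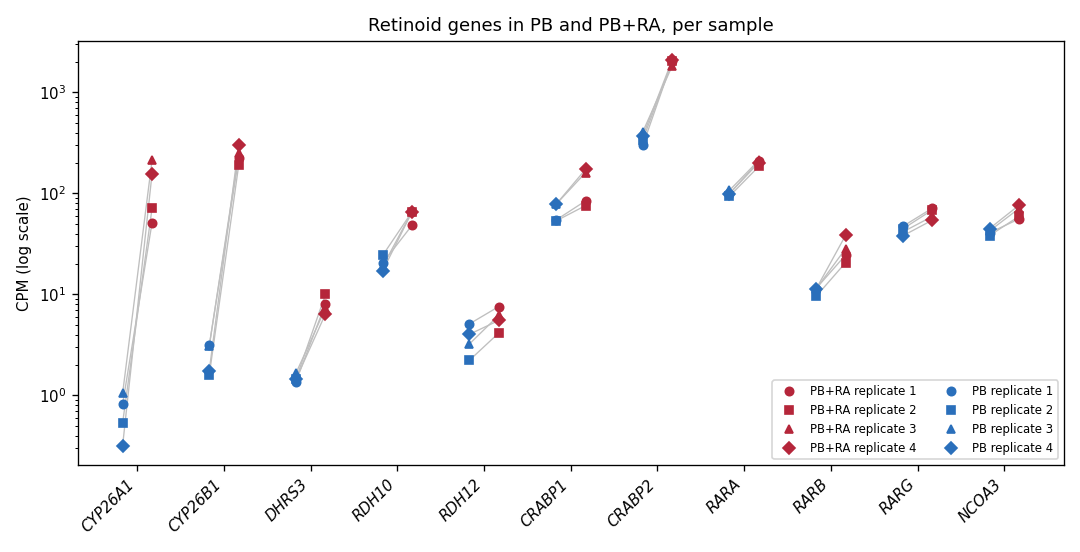
CPM on a log axis of 11 retinoid genes in the 4 PB samples (blue) and the 4 PB+RA samples (red), with circle, square, triangle and diamond for replicates 1 to 4 and a grey line joining the samples of each replicate. Every line rises. CYP26A1 goes from 0.317 to 1.05 CPM up to 51.4 to 214 CPM, and CRABP2 from 299 to 407 CPM up to 1833 to 2101 CPM.

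Of the 13 tested receptors and coregulators, 4 were higher, none was lower and 9 were not called, with a median of 0.20. RARB, the receptor gene best known as a retinoid target, was at 11.4, 9.58, 11.4 and 11.3 CPM in PB replicates 1 to 4 and 24.6, 20.7, 28.4 and 38.5 CPM in PB+RA replicates 1 to 4. The 4 PB samples lay close together, all PB+RA samples were above them, and the log2 fold change was 1.30 ± 0.10 (adjusted p = 4.94e-09). RARA was at 99.4, 93.8, 107 and 99.8 CPM in PB and 209, 186, 214 and 203 CPM in PB+RA, with a log2 fold change of 0.99 ± 0.05 (adjusted p = 1.33e-12). RARG, the third receptor, rose by 0.54 ± 0.08 (adjusted p = 8.84e-06) and the coactivator NCOA3 by 0.62 ± 0.06 (adjusted p = 3.95e-08). RARG lost its call in replicates 3 and 4 alone, after a GC and length correction and without PB+RA replicate 1, with log2 values of 0.49 in the first and 0.45 in the last. NCOA3 overlaps SULF2 on the opposite strand (118 CPM).

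The letters of the RARB promoter are shown because a repeat of the kind that RAR and RXR are known to bind lies shortly before its start. The stretch is the 100 bases before the RefSeq start (chr3:25428163-25428262, plus strand, GRCh38.p14), with the hexamers of a direct repeat in capitals. The search, on both strands, was for a pair of hexamers in the same direction with 5, 2 or 1 bases between, where each could be AGGTCA or AGTTCA or be GGGTCA or GGTTCA.
RARB: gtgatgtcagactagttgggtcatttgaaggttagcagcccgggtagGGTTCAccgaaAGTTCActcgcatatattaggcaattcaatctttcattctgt
The repeat, with 5 bases between its hexamers, begins 53 bases before the start. Such a repeat was found in 22 of 27305 RefSeq promoters of 300 bases (250 before and 50 after the start), or 0.0806%. The windows of CYP26A1 and CYP26B1 held no such repeat. That absence holds only for these exact letters within 300 bases, and repeats farther away or with other letters were not searched.

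HOX genes, which encode the homeodomain factors that give axial position in the embryo, moved upwards where they were called. Of 15 tested, 8 were higher, none was lower and 7 were not called, with a median log2 fold change of 0.57. The rises were 5 of 8 tested HOXD genes and 3 of 7 tested HOXC genes, and none of the HOXA or HOXB genes passed the filter on low counts. HOXD1 was at 1.11, 0.968, 1.81 and 1.63 CPM in PB replicates 1 to 4 and 6.0, 5.14, 5.17 and 6.30 CPM in PB+RA replicates 1 to 4. The groups did not overlap and the log2 fold change was 2.01 ± 0.18 (adjusted p = 9.48e-09). HOXD9 was at 15.2, 14.4, 16.7 and 17 CPM in PB replicates 1 to 4 and 39.5, 40.0, 32.4 and 35.2 CPM in PB+RA replicates 1 to 4, with a log2 fold change of 1.18 ± 0.08 (adjusted p = 5.10e-10). HOXD10, HOXD8, HOXC5, HOXD4, HOXC9 and HOXC10 rose by log2 values of 1.40, 0.97, 0.92, 0.84, 0.56 and 0.52, and the last was lost below the fold minimum in 5 of 18 alternatives, among them without PB replicate 1 (0.44) or PB+RA replicate 3 or 4 (0.47 each). HOXC4, an abundant member, differed by 0.38 ± 0.06 (adjusted p = 1.33e-05), under the minimum. HOXD1 overlaps HAGLR and HOXD8 overlaps HOXD-AS2 on the opposite strand, at means of 24.1 and 10.6 CPM. Of the 12 tested TALE factors, the partners with which HOX proteins bind DNA, 4 were higher and 2 lower. Over all tested genes these shares were 10.7% and 8.30%. MEIS1 rose from 35.5 ± 5.95 to 67.7 ± 13.5 CPM by a log2 of 0.90 ± 0.06 (adjusted p = 6.07e-11), PBX3 by 0.82 ± 0.05 (adjusted p = 1.27e-11) and TGIF1 by 0.73. The falls were in IRX5 (-1.24) and PBX4 (-0.76), and that of PBX4, at 1.06 CPM in PB, was lost in 6 of 17 alternatives, among them without PB replicate 2 or 4 (-0.61 and -0.74) and without PB+RA replicate 1 or 2 (-0.67 and -0.65).

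Of the transcription factors that hold the line in its adrenergic state, more fell than rose. Of 17 tested, 4 were lower, 1 was higher and 12 were not called, with a median of -0.33 against -0.02 over all tested genes. HAND1, a bHLH factor of the sympathetic lineage, was at 281, 278, 295 and 303 CPM in PB replicates 1 to 4 and 124, 109.9, 100.2 and 104 CPM in PB+RA replicates 1 to 4. No values overlapped and the log2 fold change was -1.44 ± 0.09 (adjusted p = 4.62e-09). ISL1, a LIM-homeodomain factor, was at 79.8, 71.3, 113 and 108 CPM in PB replicates 1 to 4 and 45.2, 42.9, 60.1 and 59.1 CPM in PB+RA replicates 1 to 4 and fell in every pair, with a log2 fold change of -0.87 ± 0.05 (adjusted p = 7.27e-12). LMO1, a LIM-domain cofactor, fell from 2.23 ± 0.592 to 0.428 ± 0.114 CPM, with a log2 fold change of -2.40 ± 0.21 (adjusted p = 9.96e-09). The rise was that of TBX2, a T-box repressor, from 428 ± 55.2 to 639.7 ± 77.8 CPM by 0.55 ± 0.07 (adjusted p = 1.47e-05), and it was not called in replicates 3 and 4 alone, after the GC and length correction, or without replicate 1 of PB (0.49) or PB+RA (0.50).

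The amplified oncogene was not among the calls. MYCN (chr2:16080672-16087129, plus strand) was at 5352, 6337, 5159 and 5081 CPM in PB replicates 1 to 4 and 4862, 5451, 3867 and 3670 CPM in PB+RA replicates 1 to 4. It was lower with RA in every pair although the groups overlapped, and its log2 fold change of -0.33 ± 0.07 (adjusted p = 8.21e-04) passed the adjusted p but not the fold minimum. It overlaps MYCNOS on the opposite strand (76.8 CPM). HAND2 differed by -0.10 ± 0.04 (adjusted p = 0.06) and overlaps HAND2-AS1 on the opposite strand (336 CPM). The 4 factors of the retino-sympathetic circuitry were all higher, namely RARB, RARA, MEIS1 and SOX4. SOX4, which supports neuronal maturation, was at 401, 378, 483 and 458 CPM in PB replicates 1 to 4 and 649, 655, 741 and 744 CPM in PB+RA replicates 1 to 4, with no overlap and a log2 fold change of 0.67 ± 0.05 (adjusted p = 3.59e-10).

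**Figure D2:**
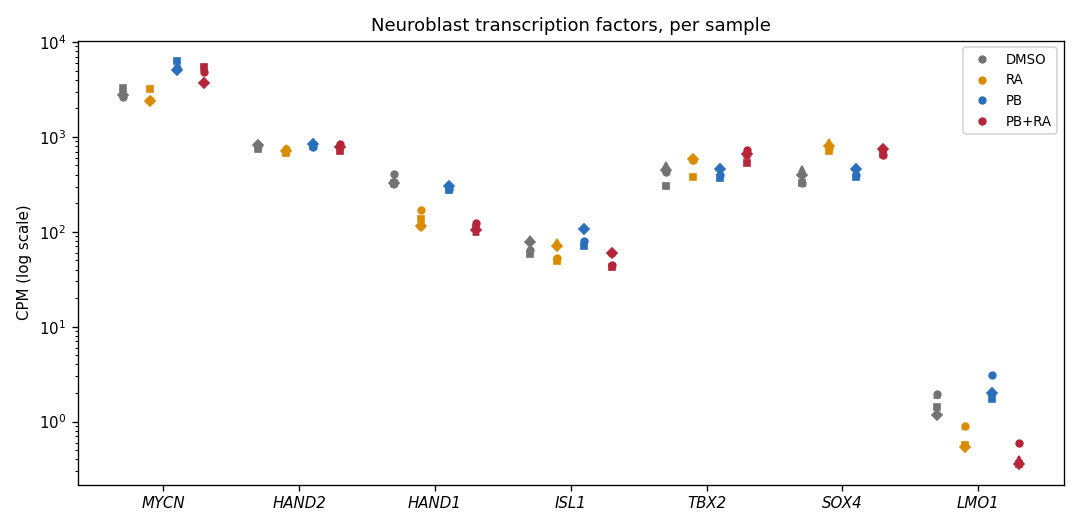
CPM on a log axis of 7 neuroblast transcription factors and cofactors in every sample of DMSO (grey), RA (orange), PB (blue) and PB+RA (red), with circle, square, triangle and diamond for replicates 1 to 4. HAND1, ISL1 and LMO1 are lower in PB+RA than in PB without overlap, SOX4 and TBX2 are higher without overlap, and MYCN and HAND2 overlap.

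Cell cycle genes were lowered further below the level that palbociclib had set. Of 43 S phase genes tested, 38 were lower and 5 were not called, and all 43 log2 fold changes were below 0, with a median of -0.98. Of 54 G2/M genes, 44 were lower and 10 were not called, again with all below 0 and a median of -1.03. None rose. MKI67, which encodes the Ki-67 proliferation marker, was at 154, 131, 150.4 and 162 CPM in PB replicates 1 to 4 and 59.8, 42.6, 63.0 and 86.8 CPM in PB+RA replicates 1 to 4. Every PB+RA sample lay below every PB sample, and the log2 fold change was -1.29 ± 0.16 (adjusted p = 6.48e-05). RRM2, the ribonucleotide reductase subunit that supplies DNA precursors, was at 145, 130.4, 182 and 197 CPM in PB replicates 1 to 4 and 38.6, 40.2, 76.1 and 74.5 CPM in PB+RA replicates 1 to 4, a log2 fold change of -1.56 ± 0.18 (adjusted p = 4.38e-05). In both groups replicates 1 and 2 were lower than replicates 3 and 4, and the groups did not overlap.

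CDC6, which loads the replicative helicase, fell from 75.4 ± 8.96 to 30.1 ± 6.74 CPM, with a log2 fold change of -1.36 ± 0.10 (adjusted p = 2.28e-08), the helicase subunit MCM4 fell by 0.88 ± 0.07, thymidylate synthase TYMS fell by 1.53 ± 0.16 and CCNE2, the cyclin E that partners CDK2, fell by 1.67 ± 0.14. TYMS overlaps ENOSF1 and CCNE2 overlaps INTS8 on the opposite strand, at 13.0 and 36.5 CPM. Of the mitotic genes, AURKB, the kinase of the chromosomal passenger complex, fell from 29.0 ± 4.11 to 9.93 ± 2.62 CPM, with a log2 fold change of -1.58 ± 0.14 (adjusted p = 7.16e-07), its partner BIRC5 fell by 1.5 ± 0.09 and the topoisomerase TOP2A fell by 1.32 ± 0.14. The medians within replicates 1 and 2 were -1.10 for S phase and -1.11 for G2/M, and within replicates 3 and 4 -0.87 and -0.91. Summed over the list, S phase genes stood at 5340 to 5401 CPM in DMSO, 4166 to 4508 in RA, 2475 to 2984 in PB and 1313 to 1692 in PB+RA. G2/M genes stood at 9260 to 9649, 7755 to 8131, 4497 to 5376 and 2643 to 3395 CPM. For both lists the 4 groups did not overlap, in that order.

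**Figure D3:**
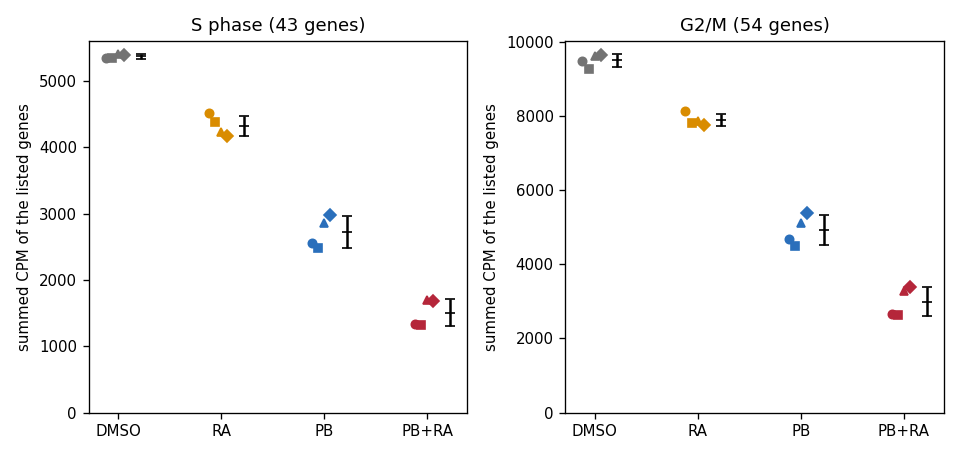
Summed CPM of the 43 S phase genes (left) and the 54 G2/M genes (right) in each sample, with the mean and SD of 4 replicates as a black bar beside the points and circle, square, triangle and diamond for replicates 1 to 4. PB+RA lies at 1313 to 1692 CPM (S phase) and 2643 to 3395 CPM (G2/M), below all samples of the other 3 groups.

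Among the 13 E2F and pocket protein genes, 6 were lower and none was higher. The activator E2F2 was at 14.2, 14.4, 15 and 16 CPM in PB replicates 1 to 4 and 4.13, 3.63, 5.21 and 4.10 CPM in PB+RA replicates 1 to 4, with tight groups that did not overlap and a log2 fold change of -1.83 ± 0.10 (adjusted p = 1.59e-11). E2F1, also an activator, was at 126, 125, 129 and 135 CPM in PB replicates 1 to 4 and 49.1, 41.6, 59.4 and 58.2 CPM in PB+RA replicates 1 to 4, a log2 fold change of -1.34 ± 0.08 (adjusted p = 2.42e-10). The atypical repressors E2F7 and E2F8, themselves S phase targets, had log2 fold changes of -1.32 ± 0.27 and -1.26 ± 0.29 from 3.61 and 1.82 CPM, the pocket protein gene RBL1 fell by 0.85 ± 0.09 and TFDP1, the dimer partner of E2F proteins, fell by 0.57 ± 0.05. The other 7 genes of the list were not called. Of 18 cyclin, kinase and CDK inhibitor genes, 6 were lower, namely CCNE2, CCNA2, CDK1, CDKN3, CCNB1 and CDK2. CCNA2 fell by 1.49 ± 0.10 and CDK1, its kinase, fell by 1.38 ± 0.09, while CDK2 fell by 0.89 ± 0.17 with groups that overlapped. CCND1, the D-type cyclin upstream of CDK4/6, was at 2667 ± 395 CPM in PB and 2394 ± 440.5 in PB+RA and was not called (-0.19 ± 0.04). CCNA2 overlaps EXOSC9 and CCND1 overlaps LTO1 on the opposite strand (43.9 and 27.0 CPM).

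The 2 genes of the cyclin, kinase and CDK inhibitor list that rose both encode CDK inhibitors. CDKN1A, which encodes p21, an inhibitor of CDK2 complexes, was at 24.2, 31.4, 26.6 and 20.8 CPM in PB replicates 1 to 4 and 78.9, 103, 70.4 and 66.7 CPM in PB+RA replicates 1 to 4. No values overlapped, replicate 2 was the highest in both groups, and the log2 fold change was 1.59 ± 0.07 (adjusted p = 2.30e-12). CDKN2B, which encodes p15, an inhibitor of CDK4/6, rose from 11.6 ± 2.23 to 24.1 ± 3.84 CPM by 1.04 ± 0.10 (adjusted p = 2.73e-08). Of the 20 genes of the stress and p53 list, 3 were higher and none lower, with a median of 0.11. FAS, a death receptor, rose from 0.679 ± 0.128 to 1.57 ± 0.296 CPM by 1.17 ± 0.21 (adjusted p = 1.01e-04), and overlaps ACTA2 on the opposite strand (37 CPM).

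The promoter letters of E2F1 and E2F2 are shown because both genes fell and both hold an E2F motif close to the start. The motif TTTGGCGC, in capitals, was searched on both strands, and each stretch is the 100 bases before the RefSeq start on GRCh38.p14 (chr20:33686386-33686485, minus strand for E2F1 and chr1:23531234-23531333, minus strand for E2F2).
E2F1: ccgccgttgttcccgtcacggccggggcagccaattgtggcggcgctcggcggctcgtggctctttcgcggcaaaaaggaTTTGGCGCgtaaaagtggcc
E2F2: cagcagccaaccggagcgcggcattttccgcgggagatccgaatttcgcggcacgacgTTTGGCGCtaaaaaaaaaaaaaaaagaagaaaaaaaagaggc
The motif begins 20 bases before the start of E2F1 and 42 before that of E2F2. It was found in 180 of the 27305 promoters (0.659%), and a match in letters is not a measured site. A further E2F motif searched, TTTCCCGC, was in neither window. The window of MKI67, which also fell, held neither of these E2F motifs. Whether the motif has a part in the falls was not tested.

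The retinoid effect with PB was set against the effect of RA over DMSO, which shares no sample with it. RA over DMSO raised 2007 genes (13.0% of those tested) and lowered 509 (3.30%). The 1139 genes raised in both comparisons were 69.1% of the rises with PB and 56.8% of those without it. The 329 genes lowered in both were 25.7% of the falls with PB and 64.6% of those without it. Opposite calls were made for 3 of the rises and 31 of the falls. Across the 15415 genes the log2 fold changes correlated at r = 0.75, where genes are not independent replicates. The difference of both effects was tested in the same fit, and it was above 0 for 190 genes (1.23%) and below 0 for 981 (6.36%). Without the replicate block these counts were 64 and 466, and after a GC and length correction with the block 293 and 742. Of the 1279 falls with PB, 501 had a difference below 0 and 4 above. Of the 1649 rises, 124 had a difference above 0 and 103 below. PB+RA over PB is itself a term of the difference. Genes picked as falls therefore lean below 0, and genes picked as rises above 0, by construction. No conclusion is drawn from these splits.

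The cell cycle genes fell more with PB than without it. For S phase, 25 of 43 genes and for G2/M, 37 of 54 had a called difference below 0, and none had one above. In RA over DMSO, 3 and 2 of them were called lower, with medians of -0.35 and -0.30. The differences were called for 30 and 43 genes within replicates 1 and 2, and for 13 and 26 within replicates 3 and 4. For MKI67 the difference was -1.12 ± 0.22 (adjusted p = 0.00586) and the RA over DMSO log2 fold change was -0.16. For E2F2 it was -1.49 ± 0.13 (adjusted p = 1.83e-07) beside -0.33. CDKN1A, by contrast, rose by 1.35 in RA over DMSO, and its difference of 0.24 ± 0.10 (adjusted p = 0.118) was not called. CYP26A1, which had 12 counts in the 4 DMSO samples together, had a difference of -2.08 ± 1.22 (adjusted p = 0.304), which was not called. RARB, RARA and HAND1 had differences of -0.47 ± 0.15 (adjusted p = 0.0366), -0.15 ± 0.07 (adjusted p = 0.142) and -0.07 ± 0.12 (adjusted p = 0.738), of which that of RARB passed the adjusted p but not the fold minimum.

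**Figure D4:**
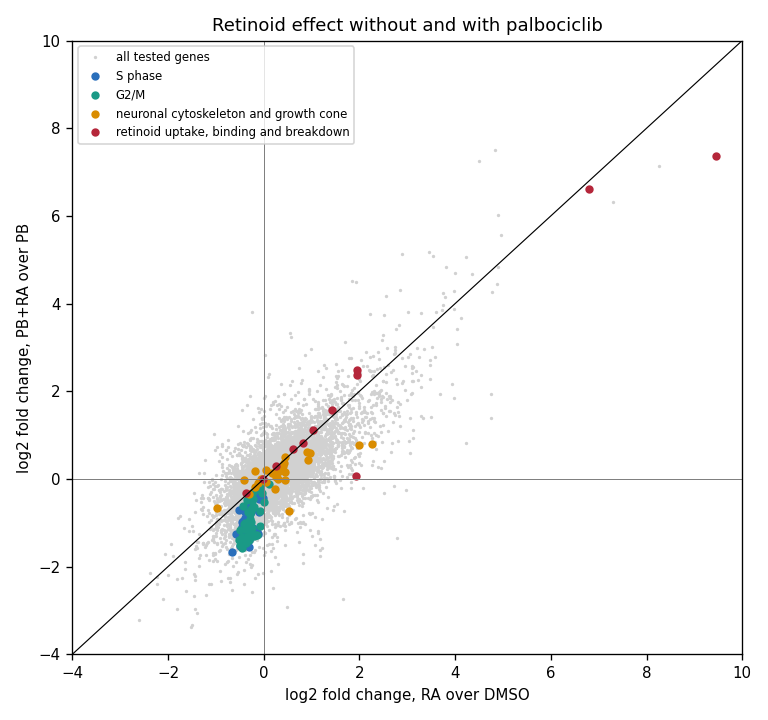
Log2 fold change of PB+RA over PB (vertical) against RA over DMSO (horizontal) for each tested gene (grey, of which 2 lie outside the axes), with genes of 4 lists in colour and the line of equal change in black. All S phase and G2/M genes lie below the line, with medians of -0.35 (horizontal) and -0.98 (vertical) for S phase and of -0.30 and -1.03 for G2/M. Retinoid genes lie on both sides of it, with CYP26A1 farthest out at 9.44 and 7.37.

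Of 26 genes of the neuronal cytoskeleton and growth cone, 5 were higher, 2 lower and 19 not called, with a median of 0.10. DCX, a microtubule-binding protein of young neurons, was at 123, 88.0, 126 and 116 CPM in PB replicates 1 to 4 and 203, 153, 209.9 and 240.5 CPM in PB+RA replicates 1 to 4. No values overlapped, and the log2 fold change was 0.80 ± 0.07 (adjusted p = 7.34e-09). STMN4, of the stathmin family, rose from 58.7 ± 12.7 to 102 ± 14.0 CPM by 0.77 ± 0.07 (adjusted p = 4.23e-08), the axonal tau gene MAPT by 0.61 ± 0.06, the growth cone proteins DPYSL3 by 0.60 ± 0.07 and BASP1 by 0.50 ± 0.04. The call of BASP1, just past the fold minimum, was lost without replicate 1 of PB or PB+RA (0.48 each) and after the GC and length correction. That of MAPT was lost after the same correction (0.495) and that of DPYSL3 in replicates 1 and 2 alone (0.43). After the correction 3 genes of the list were higher and 2 lower, with a median of 0.01. NEFH, the heavy neurofilament subunit, fell in every pair, with a log2 fold change of -0.66 ± 0.05 (adjusted p = 3.68e-10) although replicates 1 and 2 of both groups lay above 3 and 4, a call lost without the replicate block. The cell adhesion gene CNTN2 fell by 0.73 ± 0.14, a call lost in replicates 3 and 4 alone (-0.499). TUBB3, the usual neuronal tubulin marker, was at 939, 963, 1010 and 992 CPM in PB replicates 1 to 4 and 1090, 1013, 1039 and 986 CPM in PB+RA replicates 1 to 4. These values overlapped, with a log2 fold change of 0.05 ± 0.04 (adjusted p = 0.358). L1CAM, an adhesion molecule of axons, was at 1699 ± 61.3 CPM in PB and 2004 ± 134 in PB+RA, a difference of 0.21 ± 0.04 that was below the fold minimum.

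Both DCX and STMN4 rose by a smaller fold with PB than without it. Their RA over DMSO log2 fold changes were 2.26 and 2.0, with differences of -1.46 ± 0.10 (adjusted p = 2.57e-08) and -1.23 ± 0.11 (adjusted p = 8.54e-07). Their levels in PB were already above those in DMSO (16.6 ± 1.56 CPM for DCX and 8.56 ± 1.40 for STMN4). Of 36 synaptic vesicle genes, 3 were higher, 4 lower and 29 not called, with a median of 0.09. For comparison, 10.7% of all tested genes were higher and 8.30% lower. RPH3A, a Rab3 effector of vesicle docking, was at 35.9, 28.5, 44.6 and 48.8 CPM in PB replicates 1 to 4 and 6.32, 6.16, 9.62 and 8.56 CPM in PB+RA replicates 1 to 4, with no overlap and a log2 fold change of -2.39 ± 0.19 (adjusted p = 5.63e-07). RIMS2, an active zone scaffold, fell by 1.13 ± 0.13 and CPLX2, which clamps vesicle fusion, fell by 0.52 ± 0.05, a call lost without PB replicate 3 (-0.49) or PB+RA replicate 4 (-0.45), while SYT4, a synaptotagmin, rose by 0.61 ± 0.06, a call lost without the replicate block. Of 18 catecholamine and granule genes, 3 were higher and 2 lower. PNMT, which makes adrenaline from noradrenaline, rose from 11.2 ± 2.25 to 33.5 ± 9.77 CPM by 1.53 ± 0.22 (adjusted p = 1.41e-04), and the granin VGF by 0.53 ± 0.06, which was under the minimum without PB+RA replicate 1 (0.48) or 2 (0.49). GCH1, which supplies the cofactor of tyrosine hydroxylase, fell by 0.69 ± 0.06 and the neuropeptide NPY fell by 0.60 ± 0.15.

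Some of these genes gave different values in the sets of replicates. CHGA, a core protein of secretory granules, was at 4299, 4689, 3157 and 3354 CPM in PB replicates 1 to 4 and 4983, 5600, 2235 and 2419 CPM in PB+RA replicates 1 to 4. It was higher with RA in replicates 1 and 2 and lower in replicates 3 and 4, with log2 fold changes of 0.22 and -0.51 within the sets, and an overall value of -0.14 ± 0.17 (adjusted p = 0.513). NPY was at 8.79, 16.5, 134 and 113 CPM in PB replicates 1 to 4 and 8.98, 9.56, 79.7 and 76.7 CPM in PB+RA replicates 1 to 4, and its fall was not called within replicates 1 and 2, nor without the replicate block. Of 14 cholinergic genes, 2 were higher and 3 lower, beside 10.7% and 8.30% of all tested genes. ACHE, which splits acetylcholine, rose from 7.18 ± 1.05 to 15 ± 3.38 CPM by 1.03 ± 0.12 (adjusted p = 3.04e-07), and CHAT, which makes it, fell by 0.58 ± 0.20 (adjusted p = 0.0193) with values that overlapped. The fall of CHAT was lost in 5 of 17 alternatives, among them without PB replicate 3 (-0.53) or 4 (-0.46) and without PB+RA replicate 2 (-0.38).

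Of the 17 tested neurotrophic receptors, 8 were higher and 4 lower, with a median of 0.41. NTRK2, the BDNF receptor TrkB, had 0 counts in all 4 PB samples and 11, 8, 27 and 39 counts in PB+RA replicates 1 to 4. Against the 3 counts that a total of 0 allows over the PB group (0.0344 CPM), it was at least 26.8-fold higher. NTRK2 lay above the list median at this bound too, so that median does not depend on its fitted value. NGFR, the p75 co-receptor, was at 306, 297, 184 and 175 CPM in PB replicates 1 to 4 and 809, 777, 412 and 430.2 CPM in PB+RA replicates 1 to 4. Its replicates 1 and 2 lay above 3 and 4 in both groups, and the log2 fold change was 1.28 ± 0.07 (adjusted p = 3.89e-10). RET, the GDNF receptor, was at 1844, 1668, 1628 and 1598 CPM in PB replicates 1 to 4 and 2796, 2509, 2531 and 2589 CPM in PB+RA replicates 1 to 4, a rise of 0.60 ± 0.04 (adjusted p = 7.88e-11).

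LTK, a relative of ALK, rose by 0.63 ± 0.08 (adjusted p = 1.54e-05), with a difference of 0.81 ± 0.12 (adjusted p = 2.68e-04). ERBB3, a neuregulin receptor also used as a Schwann cell marker, was at 10.8, 21.3, 2.61 and 4.93 CPM in PB replicates 1 to 4 and 1.91, 5.89, 0.727 and 1.13 CPM in PB+RA replicates 1 to 4. Each pair fell, with a log2 fold change of -2.09 ± 0.14 (adjusted p = 1.38e-10), although replicate 2 of PB+RA was above replicates 3 and 4 of PB, and without the replicate block it was not called. GFRA1 rose by 1.12 ± 0.31 and GFRA3, another GDNF family co-receptor, fell by 1.57 ± 0.33, from 0.512 and 1.22 CPM. Without the replicate block the 4 falls of the list were not called.

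Axon guidance genes moved both ways, with 9 of 36 higher, 7 lower and 20 not called. SLIT2, a ligand of ROBO receptors, was at 6.31, 7.26, 5.32 and 7.15 CPM in PB replicates 1 to 4 and 43.0, 47.9, 53.3 and 67.7 CPM in PB+RA replicates 1 to 4, with a log2 fold change of 2.99 ± 0.12 (adjusted p = 8.13e-12) and no overlap. The ephrin receptor EPHB3 rose by 1.14 ± 0.09 and the semaphorin SEMA3C by 1.08 ± 0.16. SEMA3A fell by 1.16 ± 0.18 (adjusted p = 2.00e-04) and SEMA3D fell by 1.32 ± 0.18 (adjusted p = 5.13e-05), in every pair but with overlapping groups. SEMA3A rose by 0.97 in RA over DMSO, the opposite direction, and the difference was -2.13 ± 0.25 (adjusted p = 1.25e-04).

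Matrix genes rose more often than they fell. Of 47 tested, 20 were higher, 3 lower and 24 not called, with a median of 0.34, and without the replicate block 14 were higher. FN1, the adhesive glycoprotein fibronectin, was at 222, 218, 106 and 149.8 CPM in PB replicates 1 to 4 and 444, 514, 391 and 728 CPM in PB+RA replicates 1 to 4. The groups did not overlap, and PB+RA replicate 4 was the highest, with a log2 fold change of 1.53 ± 0.25 (adjusted p = 5.18e-04). TGM2, a transglutaminase long known as a retinoid target, rose from 24.6 ± 5.41 to 77.3 ± 16.5 CPM by 1.61 ± 0.21 (adjusted p = 8.98e-05). It overlaps RPRD1B on the opposite strand (43.5 CPM). The collagen chains COL6A3 and COL5A1 rose by 1.38 ± 0.09 and 0.96 ± 0.09, and TIMP2, an inhibitor of matrix proteases, by 0.70 ± 0.04. LUM, a collagen-binding proteoglycan, was at 72.8, 61.9, 85.2 and 91.8 CPM in PB replicates 1 to 4 and 17.2, 15.4, 27.2 and 32.3 CPM in PB+RA replicates 1 to 4, and fell by 1.83 ± 0.10 (adjusted p = 1.67e-10) without overlap.

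Of 22 mesenchymal markers, 11 were higher and none was lower, with a median of 0.44. The list summed to 1290 to 1490 CPM in PB and 1520 to 2020 CPM in PB+RA, and whether the share of such cells moved was not tested. FN1, which is on the list, alone went from a mean of 174 to 519 CPM. Of the defining mesenchymal markers, PRRX1 was not analysed here, and of the other 7, 4 were higher and none was lower. Among those not called, CD44 had means of 150 CPM in PB and 119 in PB+RA, and TWIST1 61.9 and 57.2. VIM, the intermediate filament vimentin, had a log2 fold change of 0.04 ± 0.04 (adjusted p = 0.424). Several risers were low, with NOTCH2 going from 1.08 ± 0.345 to 5.67 ± 3.84 CPM, a log2 fold change of 2.24 ± 0.27 (adjusted p = 2.49e-06), and YAP1, the Hippo pathway coactivator, from 0.552 ± 0.127 to 1.48 ± 0.127 CPM, a log2 fold change of 1.40 ± 0.29 (adjusted p = 4.76e-04). SNAI2, a zinc-finger repressor, rose by 0.54 ± 0.13, and lost its call without the block, in replicates 3 and 4 alone, without PB replicate 1 (0.46) and without PB+RA replicate 2 (0.43). Of 5 tested Schwann cell markers none was higher and 2 were lower.

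**Figure D5:**
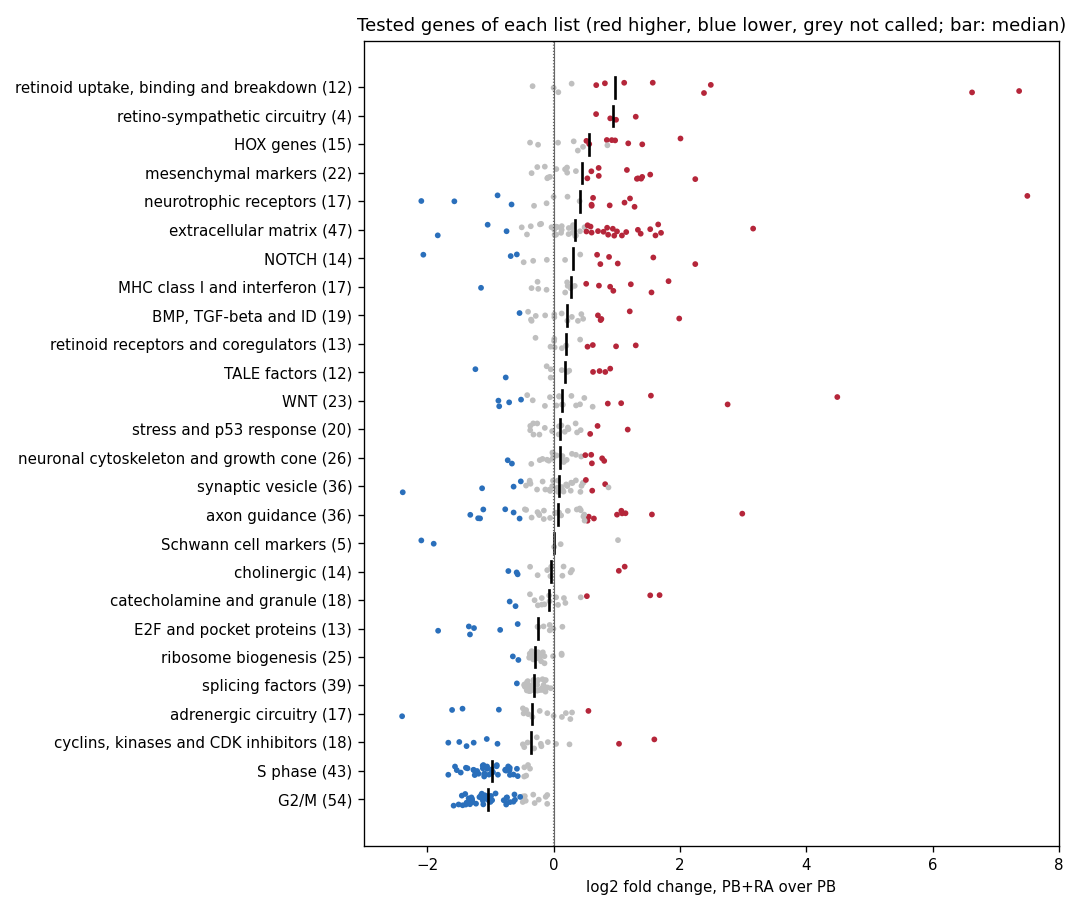
Log2 fold change of PB+RA over PB for each tested gene of 26 lists (number tested in brackets), ordered by the list median (black bar), with called rises in red, called falls in blue and genes not called in grey. S phase and G2/M lie wholly below 0 and the retinoid, HOX and matrix lists lean above it, while the neuronal lists straddle 0. The point at 7.50 is NTRK2, whose fitted value rests on 0 counts in PB.

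Over the whole table, the 8 largest rises among calls averaging 10 CPM or more whose groups did not overlap were CYP26A1, CYP26B1, CDH23, CALCB, TAFA3, PPM1J, CFI and ADAMTS14. CDH23, a cadherin of sensory hair cells, was at 4.03, 2.66, 2.04 and 2.49 CPM in PB replicates 1 to 4 and 171, 144, 103 and 127 CPM in PB+RA replicates 1 to 4, with a log2 fold change of 5.57 ± 0.11 (adjusted p = 5.56e-17) (chr10:73156677-73575704, plus strand). CALCB, a calcitonin gene-related peptide, was at 0.643, 0.242, 0.570 and 0.724 CPM in PB replicates 1 to 4 and 14.9, 11.4, 23.6 and 30.6 CPM in PB+RA replicates 1 to 4. It rose by 5.14 ± 0.17 (adjusted p = 7.27e-15), and more than in RA over DMSO (2.89), with a difference of 2.25 ± 0.34 (adjusted p = 1.01e-04). TAFA3 (chr1:113261527-113269857, plus strand) and PPM1J (chr1:113252616-113257954, minus strand) are neighbours in divergent orientation and rose by 4.83 ± 0.16 and 4.18 ± 0.38. The complement factor I gene CFI rose by 3.96 ± 0.13 and the procollagen protease gene ADAMTS14 by 3.82 ± 0.24.

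The 8 largest falls by the same rule were ADGRG2, PTPRU, RPH3A, IRX6, HTR3A, RERG, PLPPR4 and DLK1. ADGRG2, an adhesion G protein-coupled receptor on the X chromosome, was at 16.7, 12.8, 41.1 and 33.5 CPM in PB replicates 1 to 4 and 1.67, 2.13, 5.78 and 4.36 CPM in PB+RA replicates 1 to 4. The groups did not overlap, and the log2 fold change was -2.96 ± 0.18 (adjusted p = 6.46e-09). The receptor phosphatase gene PTPRU fell by 2.65 ± 0.25, the Iroquois factor IRX6 fell by 2.31 ± 0.09, the serotonin-gated channel HTR3A fell by 2.29 ± 0.10, the small GTPase RERG fell by 2.25 ± 0.11 and PLPPR4, a phosphatase-related membrane protein of neurons, fell by 2.16 ± 0.13. DLK1, a non-canonical NOTCH ligand of immature chromaffin and neuroblast cells, was at 1127, 1276, 446 and 561 CPM in PB replicates 1 to 4 and 348, 372, 79.9 and 115 CPM in PB+RA replicates 1 to 4. Its replicates 1 and 2 lay above 3 and 4 in both groups, every pair fell, and the log2 fold change was -2.06 ± 0.16 (adjusted p = 1.58e-06).

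Among called genes, the mean rose by the most CPM for CTSB, CRABP2, GAL, RET and VGF. CTSB, the lysosomal protease cathepsin B, was at 1741, 1914, 1792 and 1576 CPM in PB replicates 1 to 4 and 6270, 6575, 6386 and 6410 CPM in PB+RA replicates 1 to 4, a log2 fold change of 1.84 ± 0.06 (adjusted p = 2.62e-13) with little spread in either group. GAL, which encodes the neuropeptide galanin, went from 1021 ± 159.6 to 2388 ± 461 CPM, a rise of 1.19 ± 0.10 (adjusted p = 1.02e-06). Among called genes, the mean fell by the most CPM for DOK4, DLK1, PTN, CKB and TUBA1B. DOK4, an adaptor of receptor tyrosine kinases, was at 1852, 1582, 1928 and 2030 CPM in PB replicates 1 to 4 and 889, 716, 937 and 925 CPM in PB+RA replicates 1 to 4, a log2 fold change of -1.12 ± 0.07 (adjusted p = 8.10e-10) without overlap. It overlaps POLR2C on the opposite strand (124 CPM). The growth factor PTN fell by 1.0 ± 0.05, the creatine kinase CKB fell by 0.90 ± 0.06 and the tubulin TUBA1B fell by 0.57 ± 0.08.

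Among genes called for the difference of both retinoid effects and averaging 10 CPM or more over all 16 samples, that difference was most positive for SLC6A19, PLSCR1, SST and ADAMTS2. SLC6A19, a neutral amino acid transporter, was at 15.1, 17, 8.32 and 10.2 CPM in PB replicates 1 to 4 and 26.6, 40.9, 17.1 and 21.1 CPM in PB+RA replicates 1 to 4. It rose by 1.03 ± 0.17 (adjusted p = 1.44e-04) with PB, a call lost without the replicate block, and fell by 1.03 on the log2 scale in RA over DMSO, a difference of 2.06 ± 0.29 (adjusted p = 2.40e-04). PLSCR1, an interferon-induced scramblase, rose by 2.23 ± 0.15 with PB and by 0.58 without it, and SST, which encodes the neuropeptide somatostatin, by 1.93 ± 0.23 with PB, a call lost without the replicate block. ADAMTS2, a procollagen protease, rose by 1.70 ± 0.06 with PB and by 0.32 without it, a difference of 1.39 ± 0.09 (adjusted p = 2.80e-09). The difference was most negative for LAMA4, SEMA3A, LINC02458 and TAGLN3. TAGLN3, a neuronal calponin-family protein, was at 115, 130.3, 69.5 and 77.6 CPM in PB replicates 1 to 4 and 158, 161, 87.1 and 93.6 CPM in PB+RA replicates 1 to 4, a log2 difference of 0.31 ± 0.06 (adjusted p = 1.15e-04) that was below the fold minimum, and stood at 11.9 ± 2.79 CPM in DMSO and 58.4 ± 18.3 in RA. Its difference was -1.95 ± 0.09 (adjusted p = 2.48e-11). LAMA4, a laminin chain, rose by 0.60 ± 0.20 (adjusted p = 0.0293) with PB, but by 0.09 within replicates 1 and 2, where it was not called, and by 1.12 within replicates 3 and 4. It also lost its call in the fit of the 8 samples alone, without the block, and without replicate 3 or 4 of PB (0.41 and 0.50) or of PB+RA (0.52 and 0.55).

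Genes for protein and RNA production had small log2 fold changes, mostly below 0. Of 25 ribosome biogenesis genes, 2 were lower and none higher, with 23 log2 fold changes below 0 and a median of -0.30. Over all tested genes 8.30% were lower and 10.7% higher, so the called falls of this list were near the general share. FBL, the fibrillarin methyltransferase, fell by 0.56 ± 0.05 (adjusted p = 1.93e-08) and the ribosome assembly factor RRS1 fell by 0.64 ± 0.06 (adjusted p = 1.20e-08). NCL, the abundant nucleolar protein nucleolin, was at 1650, 1772, 1703 and 1721 CPM in PB replicates 1 to 4 and 1443, 1573, 1448 and 1408 CPM in PB+RA replicates 1 to 4, without overlap, and its log2 fold change of -0.25 ± 0.04 (adjusted p = 6.95e-06) was below the fold minimum. Of 39 splicing factors, 1 was lower, which is under the general share, and all 39 values were below 0 with a median of -0.31. HNRNPA2B1 differed by -0.40 ± 0.04 (adjusted p = 2.30e-07), likewise below the minimum, and overlaps CBX3 on the opposite strand. Genes encoded in the mitochondrial genome were not analysed here.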

How the data were processed

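PolyA RNA of SK-N-BE(2)C cells was sequenced in 16 libraries with a directional kit and paired reads. The authors trimmed reads with Trim Galore 0.6.4, aligned them to hg19 with STAR (2.6.1d per the submitters' processing notes, while the study's methods name another release) and deposited raw read counts per gene. The gene annotation release and the strand used in counting are not given in the sources used here. The deposited CPM values, which the authors computed, equal each count divided by the library total (largest deviation 5.0e-12). A deposited table of the authors' DESeq2 comparisons (fold changes and p-values) was not used.

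The counts of 15415 genes that passed edgeR's filterByExpr were fitted with edgeR 4.0.16 (R 4.3.3, TMM scaling with factors of 0.983 to 1.02, robust quasi-likelihood test, 9 residual degrees of freedom) over all 16 samples, with a term for each group and the replicate number as a block. Contrasts were PB+RA over PB, RA over DMSO and their difference, each with Benjamini-Hochberg adjustment over the 15415 genes. The code was checked on simulated counts. Samples were grouped by their labels. The study's methods define replicates as separately plated passages. The numbers were taken as pairing the samples because the deviations of all 24 same-numbered pairs from their group means correlated (r = 0.33 to 0.57, against -0.49 to 0.45 for the 72 other pairs). Part of this is shared by each set of replicates (1 and 2, or 3 and 4). Within a set, different-numbered samples also correlated, from 0.16 (RA replicate 1 with PB replicate 2) to 0.45 (PB replicate 4 with PB+RA replicate 3). The last was above PB replicate 4 with PB+RA replicate 4 (0.44). Interval floors cover counting error only, and no replicates were so alike as to be duplicates.

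Gene lists and named genes were chosen with earlier results of these data known. Named were, for each list, the most abundant and most changed members and defining members (MYCN, HAND2, MKI67, CDKN1A and TUBB3), the 8 largest rises and falls among calls averaging at least 10 CPM without overlap, the 5 called rises and 5 called falls with the largest change in mean CPM, and the 4 highest and 4 lowest differences among genes called for the difference that average at least 10 CPM over the 16 samples. Some genes that this rule names are not reported here. Gene coordinates and overlaps are from GENCODE models on GRCh37, and promoter letters from RefSeq on GRCh38.p14, matched by symbol. Motif shares were not compared between rises and falls, because only 77.5% and 78.1% of those protein-coding genes matched a promoter, which makes the check void. Alternatives were fits without the block, on the 8 samples alone, with RLE size factors, other filters and fold minimums, DESeq2 1.42.0, limma-voom (limma 3.58.1), a GC and length correction with the block, leaving out each library, and each set of replicates alone.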

Additional observations from a re-analysis of the deposited data

Results flagged for a closer look

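The retinoid effect with palbociclib differed from that without it, by the edgeR test of the difference, for 55 of the named genes (13 above and 42 below 0). Over all tested genes 1.23% were above 0 and 6.36% below. Many of the named genes were chosen for their change with PB, or for the difference itself. A raised count among them was therefore built in and is not a result about these genes. The values that follow are that difference in log2, with PB minus without PB. Above 0 were SFRP5 2.57, CALCB 2.25, SLC6A19 2.06, PLSCR1 1.64, SST 1.5, ADAMTS2 1.39, HOXD1 1.05, IRF1 0.97, HES1 0.85, LTK 0.81, SNAI2 0.72, CRABP2 0.54 and DOK4 0.54. Of those below 0, the cell cycle genes were E2F2 -1.49, RRM2 -1.25, AURKB -1.13, MKI67 -1.12, TYMS -1.04, CDK1 -1.04, E2F1 -1.02, TOP2A -1.02, BIRC5 -1.0, CCNE2 -1.0, CCNA2 -0.97, CDC6 -0.92 and CCNB1 -0.66, and all of them fell with PB. Genes that rose with PB, or for TAGLN3 differed by a positive value below the fold minimum, but rose more without it were LAMA4 -2.46, LINC02458 -2.12, GFRA1 -1.99, TAGLN3 -1.95, DCX -1.46, PNMT -1.27, STMN4 -1.23, SYT4 -1.16, WNT11 -1.10, HOXD4 -0.73 and ACHE -0.66. The other genes below 0, which fell with PB, were GFRA3 -2.79, ERBB3 -2.24, SEMA3A -2.13, ADGRG2 -1.52, SEMA3D -1.48, PTPRU -1.46, NPY -1.34, LMO1 -1.25, CNTN2 -1.25, IRX6 -0.87, LUM -0.81, PLPPR4 -0.71, RIMS2 -0.70, PTN -0.70, ISL1 -0.66, GCH1 -0.58, CKB -0.57 and RERG -0.54. CNTN2, NPY, ERBB3, GFRA3, SEMA3A and SEMA3D had a positive value without PB, although those of ERBB3 and SEMA3D were not called.

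Within the groups, 8 of 272 sets of 4 values had a sample far from the other 3 by Dixon's criterion, which chance meets in about 1 of 20 sets. These were RDH10 in PB+RA replicate 1 (48.6 CPM, the others 66.1 to 66.4), RARB in PB replicate 2 (9.58 CPM, the others 11.3 to 11.4), CCNB1 in PB replicate 4 (150.3 CPM, the others 128 to 131), BASP1 in PB+RA replicate 1 (677 CPM, the others 585 to 587), CNTN2 in PB replicate 2 (3.63 CPM, the others 4.62 to 4.80), YAP1 in PB replicate 4 (0.362 CPM, the others 0.601 to 0.629), YAP1 in PB+RA replicate 3 (1.29 CPM, the others 1.54 to 1.55) and PTN in PB+RA replicate 1 (322 CPM, the others 404 to 419).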

How the results depend on the processing

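The counts of genes higher and lower in PB+RA over PB kept within 1.5 times of 1649 and 1279 under RLE size factors, a weaker filter, DESeq2, limma-voom, the GC and length correction, the 8 samples alone and each replicate set. Leaving out each PB or PB+RA library gave 1571 to 1686 higher and 1195 to 1271 lower. They were 663 and 672 when only genes averaging 10 CPM were tested, 3666 and 4298 with no fold minimum, and 732 and 424 with a log2 minimum of 1. With the replicate block left out, which breaks the pairing, they were 1390 and 1121. The difference of the retinoid effects (190 above, 981 below) was more sensitive, with 64 and 466 without the replicate block, 92 and 554 at the 10 CPM filter, 594 and 1924 with no fold minimum, and 61 and 302 with the log2 minimum of 1. Genes above 0 were 293 after the GC and length correction and 308 in replicates 3 and 4. Leaving out each library gave 163 to 251 above and 754 to 971 below. The 10 CPM filter and the higher fold minimum allow fewer genes to be called by construction, and for the others the cause was not tested. Of 125 called genes named in the text, 98 kept their call in all alternatives run (up to 18 per gene) and 27 lost it in at least 1. Of 11 named genes that were not called, 2 were called in at least 1, and cell type markers given only by level or counts were left out. The sign turned for TUBB3 (-0.042 after the GC and length correction with the block, -0.010 in replicates 3 and 4) and for CHGA (0.22 in replicates 1 and 2). Motif shares by direction of change were not run, since too few genes matched a promoter. Depth limits the low genes most, since 3 counts equal 0.119 to 0.154 CPM.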

Other observations

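Genes of further signalling pathways were called in both directions, where 10.7% of all tested genes were higher and 8.30% lower. Of 19 BMP, TGF-beta and ID genes, 5 were higher and 1 lower, with a median log2 fold change of 0.22 in PB+RA over PB. SMAD3, which carries TGF-beta signals to the nucleus, was at 55.9, 61.3, 51.8 and 52.5 CPM in PB replicates 1 to 4 and 130.0, 139.7, 121 and 131 CPM in PB+RA replicates 1 to 4, with no overlap and a log2 fold change of 1.21 ± 0.06 (adjusted p = 2.77e-12). BMP4 rose by 1.99 ± 0.37 (adjusted p = 1.80e-04) from 0.391 CPM, a call lost without the replicate block and within replicates 1 and 2, and SMAD9 fell by 0.54 ± 0.05, a call lost without PB+RA replicate 1 (-0.48). Of 23 WNT genes, 5 were higher and 4 lower. SFRP5, a secreted WNT antagonist, was at 0.858, 1.35, 0.190 and 0.272 CPM in PB replicates 1 to 4 and 16.2, 36.3, 3.72 and 6.61 CPM in PB+RA replicates 1 to 4, a rise of 4.49 ± 0.19 (adjusted p = 1.44e-13), against 1.92 in RA over DMSO, with a difference of 2.57 ± 0.41 (adjusted p = 1.66e-04). The ligand WNT11 rose by 1.54 ± 0.21.

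Of 14 NOTCH genes, 6 were higher and 3 lower. HES1, a NOTCH-induced repressor, was at 8.11, 11.3, 14.6 and 12.2 CPM in PB replicates 1 to 4 and 21.4, 22.9, 22.1 and 18.8 CPM in PB+RA replicates 1 to 4. It rose by 0.88 ± 0.11 (adjusted p = 2.69e-06) with PB and had a log2 fold change of 0.03 ± 0.12 (adjusted p = 0.836) in RA over DMSO, with a difference of 0.85 ± 0.16 (adjusted p = 0.00116). HEY1, of the same family, rose by 0.69 ± 0.12 (adjusted p = 5.51e-04), but by 0.30 within replicates 1 and 2, where it was not called. Of 17 MHC class I and interferon genes, 7 were higher and 1 lower. IRF1, an interferon-induced factor, was at 3.86, 3.73, 3.75 and 3.44 CPM in PB replicates 1 to 4 and 9.74, 9.65, 7.48 and 8.30 CPM in PB+RA replicates 1 to 4 and rose by 1.22 ± 0.12 (adjusted p = 3.43e-08), while NLRC5, an activator of MHC class I genes, fell from 29.9 ± 1.21 to 13.8 ± 2.02 CPM, with a log2 fold change of -1.15 ± 0.08 (adjusted p = 2.14e-10).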
